A study of Mus musculus with 18 samples.

Results

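The 36 genes described here encode the folding machinery of the endoplasmic reticulum and the stress pathway that controls it, the unfolded protein response. They were taken by symbol from a list of the pathway drawn up with earlier results of these data known, and all 36 were among the 22238 symbols of the count table. All 36 also passed the filter on low counts, which left 15494 genes for testing. They fall into 6 roles: 8 chaperones with their co-factors, 2 lectin chaperones, 7 disulfide isomerases and oxidases, 7 factors of endoplasmic reticulum-associated degradation, 4 subunits of the translocon and signal peptidase, and 8 stress sensors, transcription factors and outputs.

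Proteins bound for secretion or for a membrane enter the endoplasmic reticulum through the translocon, are glycosylated, and fold with the help of chaperones and disulfide isomerases, while failed products are sent back to the cytosol for degradation. When unfolded proteins accumulate, 3 sensors in the membrane respond: IRE1α (gene Ern1) splices the mRNA of Xbp1, ATF6 is cut to release a transcription factor, and PERK (gene Eif2ak3) phosphorylates eIF2α, which slows translation but favours that of Atf4. Estrogen makes the uterine epithelium grow and secrete, so this machinery is in demand there.

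The study sequenced total RNA of whole uterus homogenate from ovariectomized adult CD-1 mice, an outbred stock, to ask how doxorubicin (DOX) changes the uterine response to estrogen. DOX is an anthracycline that poisons topoisomerase II, and phosphate-buffered saline (PBS) was its vehicle. Ovariectomy removes the main source of ovarian steroids, and the labelled hormone treatments in each arm were oil (OIL), estradiol (E2) and progesterone (P4). This gave 6 groups of 3 libraries: PBS OIL, DOX OIL, PBS E2, DOX E2, PBS P4 and DOX P4. All groups share the strain and the ovariectomy, and the labels give neither doses nor times. Nor do they state that each library came from its own animal, and the spread that the p-values rest on may therefore be technical in part.

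Total counts ran from 18042357 to 39783785 per library. PBS E2 replicate 1 was the deepest, with 28122299 counts in the next library, and it stood apart in composition as well. Its 8 adipocyte markers summed to 3958 CPM (counts scaled to a common library size), against 183 and 752 CPM in PBS E2 replicates 2 and 3, so results that rest on it are given with and without it. The 5 uterine markers (Esr1, Pgr, Hoxa10, Hoxa11 and Hand2) summed to at least 875 CPM in every library, and the 4 markers of pancreatic acinar cells, a secretory cell type foreign to the uterus, to at most 4.47 CPM. In homogenates such as these, fewer cells of a type and less RNA per cell cannot be told apart.

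The largest levels of the set were found when DOX and E2 came together. The CPM of the 36 genes summed to 4135 to 4348 in PBS OIL and 4090 to 4320 in DOX OIL. With E2 the sum was 7184 to 9141 CPM in PBS and 13864.5 to 15376 CPM in DOX animals, the highest of the 6 groups, and the DOX E2 libraries lay above all others. With P4 it was 4621 to 5614 CPM in PBS and 4885 to 5718 CPM in DOX. The members thus took 0.442% to 0.469% of all counts in PBS OIL, 0.698% to 0.825% in PBS E2 and 1.20% to 1.3% in DOX E2.

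Under E2, 29 of the 36 genes rose with DOX and 1 fell. Differences were tested with edgeR's quasi-likelihood F test with Benjamini-Hochberg adjustment over all 15494 genes and a threshold of 0.05. Among all tested genes 41% were called in this comparison, 20.4% higher and 20.6% lower, against 80.6% of the members higher and 2.78% lower. The median log2 fold change was 0.82 over the members and 0.02 over all genes. For 29 members the lowest DOX E2 library lay above the highest PBS E2 library, which held for 26% of all genes. Of the 30 calls, 24 held under each of 14 alternatives. Without PBS E2 replicate 1, 32 members were higher and 0 lower, beside 43.6% of all genes called. Scaling by total counts moved the median of all genes to -0.10 and that of the members to 0.70, with 26 members higher and 1 lower, and the share of all called genes that were higher went from 49.7% to 31.2%.

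**Figure D1:**
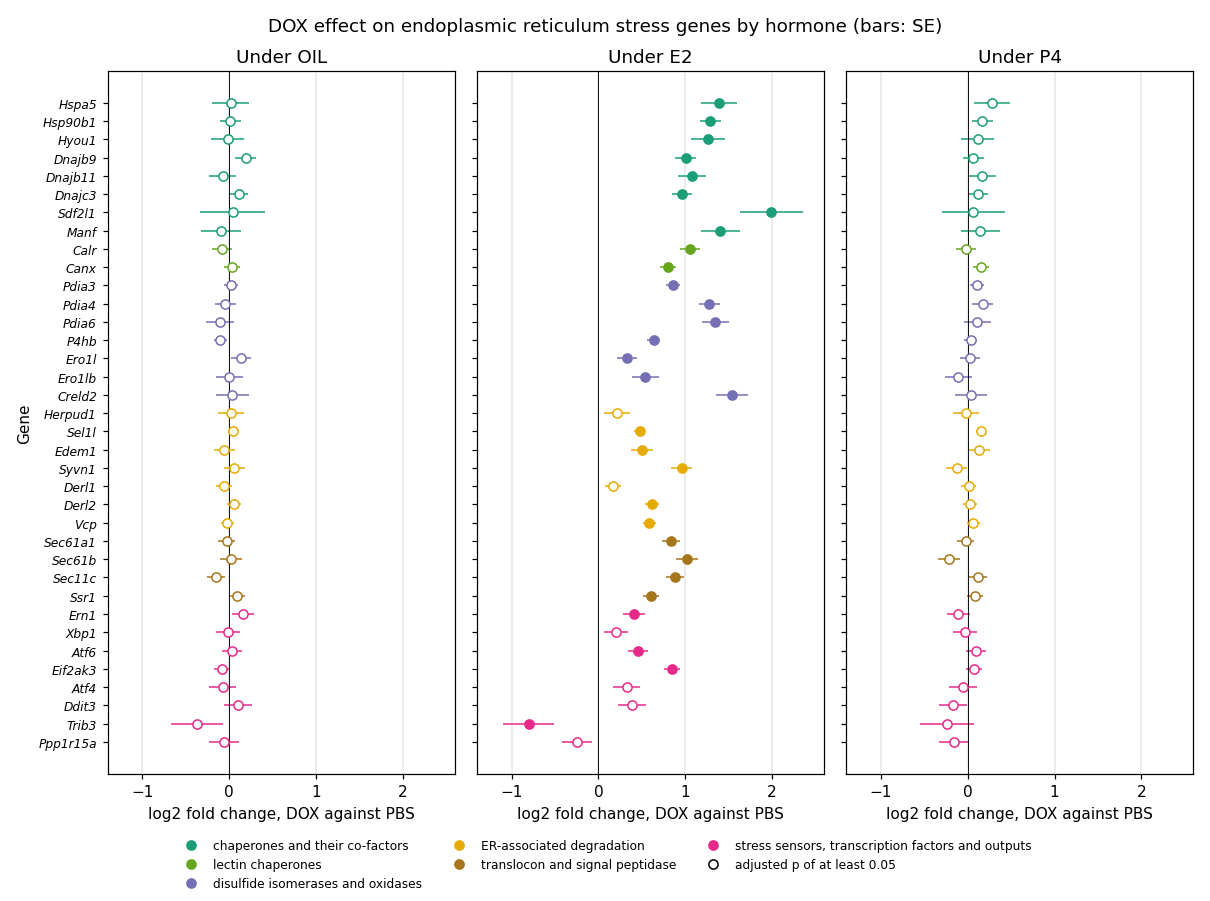
Log2 fold change of each of the 36 genes for DOX against PBS (x axis, bars are SE) under OIL, E2 and P4, coloured by role, with filled points for an adjusted p under 0.05 in edgeR. The points under OIL and P4 lie near 0 and all are open, while 30 of the 36 under E2 are filled, from 1.99 for Sdf2l1 down to -0.80 for Trib3.

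All 8 chaperones and co-factors rose with DOX under E2, with a median log2 fold change of 1.27. Hspa5 encodes BiP, the abundant chaperone that also holds the 3 sensors inactive. Its mean was 909 ± 189 CPM in PBS E2 and 2380 ± 181 CPM in DOX E2 (SD, n = 3), a log2 fold change of 1.39 ± 0.21 (SE). In OIL the mean was 258 ± 15.3 CPM for PBS and 261 ± 16.4 CPM for DOX, a difference smaller than the spread between libraries. Hsp90b1 encodes GRP94, the HSP90 of this compartment. Its PBS E2 libraries 1 to 3 were at 626, 537 and 505 CPM and its DOX E2 libraries at 1499.7, 1379 and 1193 CPM. The 2 groups did not overlap, the 12 libraries without E2 lay between 346 and 597 CPM, and the log2 fold change was 1.29 ± 0.12, with an adjusted p of 3.58e-06.

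Dnajc3 encodes p58IPK, a co-chaperone of BiP. It stood at 193, 163 and 180.5 CPM in PBS E2 and at 351, 357 and 335 CPM in DOX E2, and every DOX library was above every PBS library. The log2 fold change was 0.96 ± 0.11 (edgeR adjusted p = 2.07e-05). The other co-factors moved by similar amounts. Hyou1, the GRP170 exchange factor of BiP, rose by 1.26 ± 0.19 (log2), Dnajb11 by 1.08 ± 0.16 and Dnajb9 by 1.01 ± 0.12, the last 2 being J-domain partners of BiP. Manf, a secreted protein of stressed cells, rose by 1.41 ± 0.23. Sdf2l1, which works with Dnajb11, had the largest log2 fold change of the set, 1.99 ± 0.36, at low levels of 9.94 ± 2.75 CPM in PBS E2 and 39.8 ± 8.36 CPM in DOX E2 (SD, n = 3).

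The lectin chaperones calnexin (Canx) and calreticulin (Calr), which hold newly glycosylated proteins, both rose. Calr stood at 665, 555 and 548 CPM in PBS E2 and at 1346, 1213 and 1115 CPM in DOX E2. These groups did not overlap, and the libraries without E2 lay between 277 and 506 CPM. The log2 fold change was 1.06 ± 0.12, with an edgeR adjusted p of 1.26e-05. Canx, the membrane-bound partner, was at 488, 438 and 464 CPM in PBS E2 and at 863, 782 and 768 CPM in DOX E2, again without overlap, for a log2 fold change of 0.80 ± 0.09.

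All 7 disulfide isomerases and oxidases rose with DOX under E2, with a median log2 fold change of 0.86. Pdia3 encodes ERp57, the isomerase that works with the lectin chaperones. It was at 493, 433 and 433 CPM in PBS E2 and at 893, 811 and 757 CPM in DOX E2, and the DOX libraries all lay higher. The log2 fold change was 0.86 ± 0.08 (edgeR adjusted p = 3.88e-06). Pdia4, known as ERp72, was at 102, 102 and 90.1 CPM in PBS E2 and at 270.3, 239.8 and 202 CPM in DOX E2. The PBS E2 libraries of Pdia4 lay inside the range of the libraries without E2, 74.9 to 125 CPM, and only the DOX E2 libraries stood above it. Its log2 fold change was 1.28 ± 0.12, with an adjusted p of 3.97e-06.

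Creld2 is a stress-induced isomerase-like protein and Pdia6 (P5) a partner of BiP. They rose by 1.54 ± 0.18 and 1.35 ± 0.16 on the log2 scale. P4hb, the classic isomerase, rose by 0.64 ± 0.07. The oxidases that recharge these enzymes moved less: Ero1lb, the form known from pancreas and stomach, rose by 0.54 ± 0.16 and Ero1l, the widespread form, by 0.33 ± 0.11. Their calls were not stable. That of Ero1l ended without any 1 of 5 libraries, PBS E2 replicate 3 being the exception, and that of Ero1lb ended without PBS E2 replicate 3 or DOX E2 replicate 1 (log2 fold changes 0.48 and 0.45). Both also ended with total-count scaling (0.20 for Ero1l and 0.41 for Ero1lb) and with the adipocyte covariate (0.40 and 0.55). The Ero1lb call ended in the fit of only the E2 groups as well (0.50).

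Of the 7 degradation factors 5 rose and 2 were not called, with a median log2 fold change of 0.50. Vcp encodes p97, the ATPase that pulls substrates out of the membrane. It was at 302, 253 and 266 CPM in PBS E2 and at 429, 398 and 404 CPM in DOX E2, with no overlap and a log2 fold change of 0.58 ± 0.07 (edgeR adjusted p = 3.83e-05). Derl2, a Derlin of the retrotranslocation channel, was at 45.5, 46.5 and 42.6 CPM in PBS E2 and at 70.3, 70.2 and 65.8 CPM in DOX E2. Only the DOX E2 libraries of Derl2 left the range seen without E2, 40.6 to 50.5 CPM, and the log2 fold change was 0.62 ± 0.08. The ubiquitin ligase Syvn1 (HRD1) rose by 0.96 ± 0.12, its partner Sel1l by 0.47 ± 0.06 and the mannosidase-like lectin Edem1 by 0.50 ± 0.12.

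The 2 factors not called were Herpud1, a stress-induced subunit of the HRD1 complex, and the Derlin Derl1. Their log2 fold changes were 0.21 ± 0.15 and 0.17 ± 0.09. In both, PBS E2 replicate 1 decided the call. The Herpud1 libraries of PBS E2 ran from 110.02 to 191 CPM, with replicate 1 the highest, and those of DOX E2 from 149.7 to 169.7 CPM. Without replicate 1 Herpud1 was called at 0.51 (edgeR adjusted p = 0.000131) and Derl1 at 0.31 (adjusted p = 0.00143).

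All 4 subunits of the translocon and signal peptidase rose with DOX under E2, with a median log2 fold change of 0.86. Sec61a1 encodes the channel itself. It was at 471, 349.8 and 377 CPM in PBS E2 and at 737, 719 and 685 CPM in DOX E2, without overlap, for a log2 fold change of 0.84 ± 0.10. Sec11c, a catalytic subunit of the signal peptidase, was at 21.1, 25.5 and 20.6 CPM in PBS E2 and at 42.1, 40.8 and 40.8 CPM in DOX E2. Its PBS E2 libraries were at the lower end of the libraries without E2 (21.6 to 33.6 CPM) or just under it, and its log2 fold change was 0.88 ± 0.11 (edgeR adjusted p = 2.41e-05). The small channel subunit Sec61b rose by 1.02 ± 0.13 and Ssr1, of the translocon-associated complex, by 0.60 ± 0.09.

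The 8 sensors, transcription factors and outputs were mixed: 3 rose, 1 fell and 4 were not called, with a median log2 fold change of 0.36. Each of the 3 sensors rose. Eif2ak3 was at 24.7, 20 and 20.3 CPM in PBS E2 and at 36.3, 42.7 and 38.3 CPM in DOX E2. The PBS E2 libraries of Eif2ak3 were the lowest of all 18, and the libraries without E2 lay between 30.8 and 37.5 CPM. The log2 fold change with DOX was 0.85 ± 0.09, with an edgeR adjusted p of 1.13e-05. Atf6 was at 132, 86.6 and 92.8 CPM in PBS E2 and at 134, 143 and 152 CPM in DOX E2, where PBS E2 replicate 1 came close to the lowest DOX library without passing it. Its log2 fold change was 0.46 ± 0.12. The Atf6 call was not among the 24 that held under each alternative. In the fit of only the E2 groups it ended, at 0.42 (edgeR adjusted p = 0.0753). Ern1 rose by 0.41 ± 0.13, and that call ended without PBS E2 replicate 2, PBS E2 replicate 3 or DOX E2 replicate 1 (log2 fold changes 0.31, 0.36 and 0.35). The Ern1 call also ended with total-count scaling (0.29) and in the fit of only the E2 groups (0.37).

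Downstream of the sensors the picture differed from that of the chaperones. Xbp1, the transcription factor behind many chaperone and degradation genes, was at 414, 317 and 393 CPM in PBS E2 and at 389, 422 and 482 CPM in DOX E2. The groups overlapped, and its log2 fold change of 0.20 ± 0.14 was not called (edgeR adjusted p = 0.264), here or under any of the 14 alternatives. These are counts per gene and do not separate spliced from unspliced Xbp1. Ppp1r15a encodes GADD34, the phosphatase subunit that restores translation. It was likewise not called under any of them, at -0.25 ± 0.17.

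Atf4 was at 779, 500.2 and 525 CPM in PBS E2 and at 727, 757 and 777 CPM in DOX E2. PBS E2 replicate 1 was as high as the DOX libraries, and the other PBS E2 libraries lay below them. With all libraries the log2 fold change was 0.33 ± 0.16 (edgeR adjusted p = 0.107), and without PBS E2 replicate 1 it was 0.55 (adjusted p = 0.00373). Ddit3 encodes CHOP, a factor linked to cell death. It was at 44.2, 32.0 and 28.8 CPM in PBS E2 and at 39.1, 50.2 and 48.3 CPM in DOX E2, groups that overlapped through the same library. Its log2 fold change was 0.39 ± 0.16 (adjusted p = 0.0616), and 0.59 without that library (adjusted p = 0.00484). With the replicate block the Ddit3 value was 0.41 (adjusted p = 0.0420).

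Trib3, a pseudokinase and target of ATF4 and CHOP, was the 1 member called lower. It was at 32.3, 13.3 and 12.1 CPM in PBS E2 and at 8.0, 12.0 and 13.2 CPM in DOX E2. The groups overlapped, and PBS E2 replicate 1 stood far above every other library. The log2 fold change was -0.80 ± 0.29 (edgeR adjusted p = 0.0386), but -0.20 without that library (adjusted p = 0.440). The call also ended without DOX E2 replicate 1 or 2 (-0.64 and -0.86), and with the replicate block (-0.71, adjusted p = 0.0648). It ended too in the fit of only the E2 groups (-0.84) and with the adipocyte covariate (0.031).

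**Figure D2:**
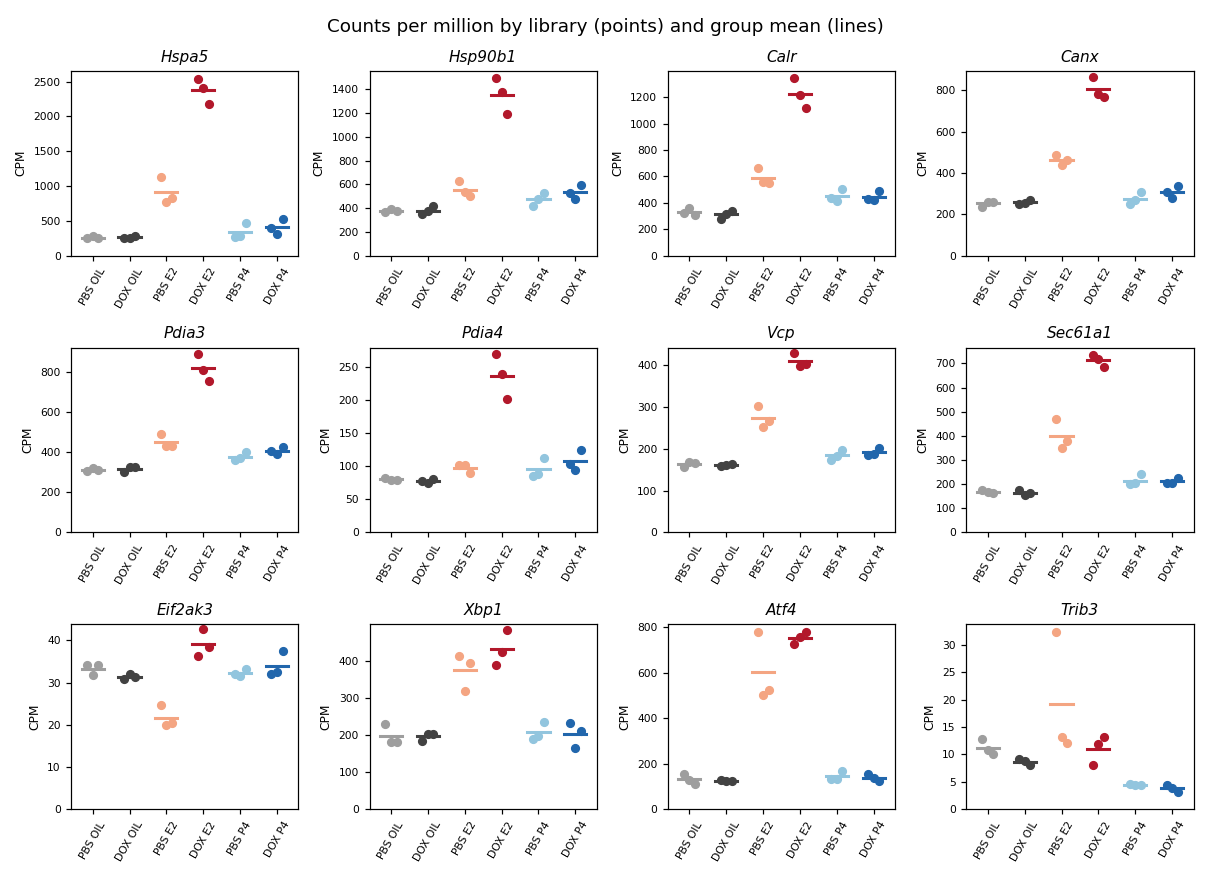
CPM of 12 of the genes (y axis, from 0) in each of the 18 libraries (points) by group (x axis), with lines at the group means. The 3 DOX E2 libraries stand above the rest for Hspa5, Hsp90b1, Calr, Canx, Pdia3, Pdia4, Vcp, Sec61a1 and, except for 1 DOX P4 library, Eif2ak3, while Xbp1, Atf4 and Trib3 overlap with PBS E2.

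The promoters of the members were examined because so many moved together. The RefSeq promoter table (build GRCm38.p6) gives 250 bases before to 50 bases after the start of a gene. It held 30 of the 36 members, in 31 windows. The ER stress response element ERSE, CCAAT and CCACG with any 9 bases between them, is a site known to be bound by NF-Y with ATF6 or XBP1. It was found on either strand for 9 of these 30 genes (30%), and in 0.119% of the 32851 windows of the table. All 9 genes rose with DOX under E2, with a median log2 fold change of 1.06. Of the 21 genes without it, 15 rose, with a median over the 21 of 0.58. The members were chosen as genes of the pathway that this element serves, so its high share among them follows from that choice. Whether the element had a part in the rise was not tested. The stretches below are shown to let the shared element be read in each gene. They run 5′ to 3′ on the strand of the gene, with the match in capitals (a match on the other strand reads CGTGG first and ATTGG last). Hsp90b1 has 2 matches, and Herpud1, which was not called, has the related ERSE-II.
Hspa5 (chr2:34772020-34772048, plus strand): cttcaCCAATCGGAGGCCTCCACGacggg
Hsp90b1, distal (chr10:86705618-86705676, minus strand): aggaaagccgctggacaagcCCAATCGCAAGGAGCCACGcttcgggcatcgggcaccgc
Hsp90b1, proximal (chr10:86705513-86705571, minus strand): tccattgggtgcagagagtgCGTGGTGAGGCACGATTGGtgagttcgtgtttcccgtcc
Dnajc3 (chr14:118937807-118937865, plus strand): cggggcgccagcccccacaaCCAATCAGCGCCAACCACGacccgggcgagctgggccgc
Calr (chr8:84847055-84847113, minus strand): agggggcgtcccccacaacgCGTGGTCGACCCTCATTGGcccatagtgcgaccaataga
Canx (chr11:50325780-50325838, minus strand): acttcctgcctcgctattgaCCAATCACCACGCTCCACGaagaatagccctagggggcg
Pdia6 (chr12:17266471-17266529, plus strand): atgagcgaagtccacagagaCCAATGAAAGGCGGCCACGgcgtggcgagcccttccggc
Creld2 (chr15:88819500-88819558, plus strand): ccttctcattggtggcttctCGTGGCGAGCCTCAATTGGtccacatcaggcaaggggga
Ero1lb (chr13:12565662-12565720, plus strand): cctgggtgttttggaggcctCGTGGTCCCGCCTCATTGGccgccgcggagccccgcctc
Syvn1 (chr19:6046512-6046570, plus strand): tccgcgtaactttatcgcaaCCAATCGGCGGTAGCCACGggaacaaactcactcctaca
Herpud1, ERSE-II (chr8:94386357-94386407, plus strand): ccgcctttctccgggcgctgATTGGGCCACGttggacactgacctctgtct

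Other elements were rarer among the members. ERSE-II, ATTGG and CCACG with any 1 base between them, which shares its last 5 letters with ERSE, was found in 2 windows (Dnajb11 and Herpud1) and in 0.0365% of all windows. The UPR element TGACGTGG was found in the Vcp window alone, against 0.676% of all windows. A C/EBP-ATF element of the kind bound by ATF4, TGATGNAAN, was found in 2 windows (Herpud1 and Trib3), against 3.95% of all. The palindromic estrogen response element, GGTCA and TGACC with any 3 bases between them, was found for 0 of the 30 genes and in 0.07% of all windows. Both strands were searched for each. A match describes letters in a short window and shows no binding, and GENCODE M21 starts its Hspa5 model upstream of the RefSeq start, so the Hspa5 match lies in its first exon there.

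**Figure D3:**
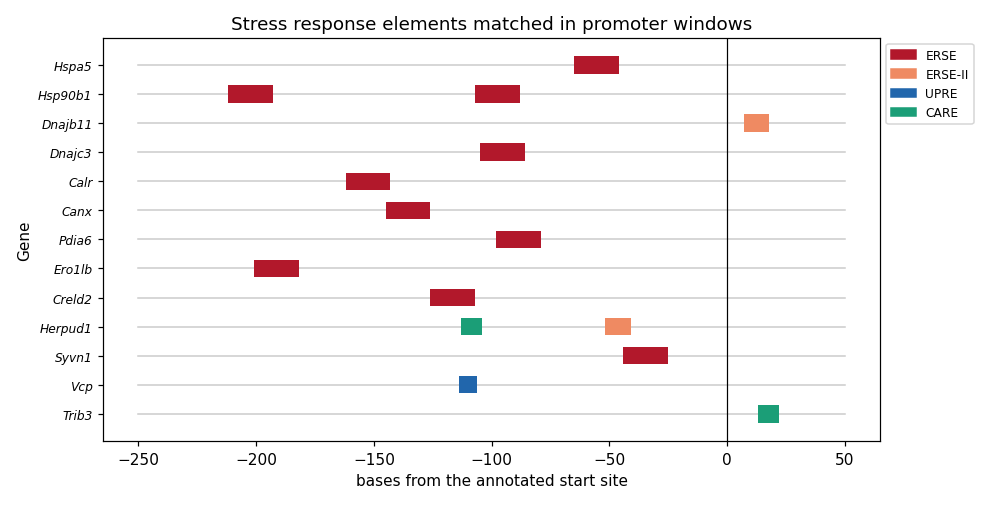
Position of each matched element in the promoter windows of 13 members, in bases from the RefSeq start site (x axis), with grey lines for the window searched and colours for the element. The 10 ERSE matches lie between 212 and 26 bases before the start.

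The order of the levels changed with treatment. Compared per kilobase of exon (CPM divided by the length of merged GENCODE exons), P4hb had the highest level in PBS OIL, 170.9 ± 6.73 CPM per kb (SD, n = 3). Calr followed at 114 ± 8.94 and Pdia3 at 99.9 ± 2.54 CPM per kb, with Hsp90b1 at 93.1 ± 3.37 and Hspa5 at 61 ± 3.61 CPM per kb, next to Xbp1 at 60.9 ± 8.75. The levels of Hspa5 and Xbp1 differed by less than their spread. In DOX E2 the level of Hspa5 was first at 563 ± 42.9 CPM per kb, above Calr at 425 ± 40.2 and P4hb at 356 ± 15.6. In PBS E2 Atf4 was at 255 ± 65.3 and P4hb at 229 ± 14.7 CPM per kb, which differed by less than the spread of Atf4. Without PBS E2 replicate 1 the means were 217 CPM per kb for Atf4 and 221 CPM per kb for P4hb. Ero1lb was last in all 3, at 2.23 ± 0.274 CPM per kb in PBS OIL and 1.76 ± 0.183 in DOX E2.

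E2 alone raised much of the set, and it raised more genes by more in DOX animals. Against OIL, 28 members rose and 2 fell with E2 in the PBS arm, where 61.4% of all genes were called (29.6% higher and 31.9% lower). In the DOX arm 34 rose and 0 fell, where 72.6% of all genes were called (35.1% higher and 37.5% lower). The median log2 fold change of the members was 0.76 in PBS and 1.36 in DOX, beside -0.09 and -0.08 over all genes, and 27 members rose in both arms. These arms share no library. Total-count scaling moved the medians of all genes to -0.28 and -0.39 and the share of calls that were higher from 48.1% to 36% in PBS and from 48.4% to 34.9% in DOX. It left 24 members higher and 4 lower in PBS, and 29 higher and 1 lower in DOX. Marker sums moved beside these responses. In PBS the smooth muscle markers went without overlap from 5633 to 6802 CPM with OIL to between 7740 and 8363 CPM with E2. In DOX the stromal markers went from 5408 to 6546 CPM with OIL down to between 1952 and 3050 CPM with E2. The part of these cell types in the members' responses was not tested.

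Among chaperones, Hspa5 rose by 1.82 ± 0.21 (log2) with E2 in PBS and by 3.19 ± 0.23 in DOX, that is 3.53-fold and 9.13-fold. Hyou1 rose by 2.12 ± 0.20 and 3.4 ± 0.21, Manf by 1.77 ± 0.23 and 3.27 ± 0.25, and Dnajb11 by 1.54 ± 0.16 and 2.70 ± 0.17. Hsp90b1 had a small response in PBS, 0.57 ± 0.12, and a larger one in DOX, 1.84 ± 0.12. The same held among the isomerases for Pdia6, at 0.63 ± 0.16 and 2.08 ± 0.16. Creld2 had a large response in both arms, 1.64 ± 0.19 and 3.14 ± 0.20. In the PBS arm the calls of Dnajb9 (0.38) and Sdf2l1 (1.14) ended without PBS E2 replicate 1 (0.29 and 0.91).

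Some members responded to E2 in DOX animals without being called higher in PBS. Pdia4 had a log2 fold change of 0.28 ± 0.12 in PBS (edgeR adjusted p = 0.0542) and rose by 1.6 ± 0.12 in DOX. The PBS value of Pdia4 lay close to the threshold and was called higher under 5 of the alternatives, at 0.27 to 0.34, one of them leaving out PBS E2 replicate 3. Sec11c was at -0.16 ± 0.11 in PBS and rose by 0.87 ± 0.11, and Derl2 was at 0.05 ± 0.08 and rose by 0.61 ± 0.08. Sel1l was at -0.13 ± 0.06 in PBS and rose by 0.30 ± 0.06 in DOX, although total-count scaling turned the DOX value to -0.016. Eif2ak3 fell by 0.62 on the log2 scale in PBS (SE 0.09) and rose by 0.31 ± 0.09 in DOX. With total counts the last value was 0.0049 and not called. Ero1lb, the other member that fell with E2 in PBS, was at -0.88 ± 0.16 there and at -0.34 ± 0.16 in DOX (adjusted p = 0.0581).

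Among the sensors, transcription factors and outputs the E2 responses of the arms were closer, with a median difference of 0.26 (log2). The difference was not called for 7 of these 8 in the test given below. Atf4 rose by 2.20 ± 0.16 in PBS and 2.6 ± 0.17 in DOX. Its PBS value was the largest of the set, but that of Hyou1, 2.12, differed from it by less than the SE. PBS E2 replicate 1 was the highest of its group for both genes. Ern1 rose by 1.44 ± 0.13 and 1.69 ± 0.13, Xbp1 by 0.92 ± 0.14 and 1.14 ± 0.14, and Ppp1r15a by 1.11 ± 0.17 and 0.93 ± 0.17. Atf6 went from 58.7 ± 4.26 CPM with OIL to 104 ± 24.4 CPM with E2 in PBS (SD, n = 3). In DOX it went from 60.1 ± 2.26 to 143 ± 8.96 CPM. Ddit3 was at 0.18 ± 0.16 in PBS and rose by 0.46 ± 0.16 in DOX, a call that ended without DOX E2 replicate 2 (0.39). Trib3 rose by 0.79 ± 0.29 in PBS, a call that ended without PBS E2 replicate 1 (0.18), and was at 0.35 ± 0.30 in DOX.

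The difference between the arms was itself tested as an interaction of E2 with DOX. It was called for 25 members, all with a larger E2 response in DOX, and for 22.9% of all genes, 10.1% higher and 12.8% lower. The median interaction was 0.79 (log2) over the members and 0.01 over all genes. By role it was called for 8 of 8 chaperones, 2 of 2 lectin chaperones, 5 of 7 isomerases and oxidases, 5 of 7 degradation factors, 4 of 4 translocon subunits and 1 of 8 sensors and outputs. The smallest p belonged to Pdia4, at 1.32 ± 0.17 (edgeR adjusted p = 0.000216), and Eif2ak3 was the 1 sensor, at 0.93 ± 0.13 (adjusted p = 0.000347). The interaction shares its E2 libraries with the comparison of DOX and PBS under E2, so the 2 counts are not separate evidence. Total-count scaling moved its median over all genes to -0.11 and the share of calls higher from 44.1% to 24.7%, with 24 members called.

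For the other members the interaction did not pass. It was 0.43 ± 0.16 for Atf6 (edgeR adjusted p = 0.0721), 0.40 ± 0.22 for Atf4, 0.28 ± 0.22 for Ddit3, 0.25 ± 0.18 for Ern1 and 0.21 ± 0.20 for Xbp1. It was -0.43 ± 0.42 for Trib3 and -0.18 ± 0.24 for Ppp1r15a, the only values below 0. Without PBS E2 replicate 1 the interaction was called for 29 members and 31.3% of all genes. Atf6 (0.64), Atf4 (0.63), Herpud1 (0.49) and Derl1 (0.37) were the members added. The call of Edem1 (0.55 ± 0.18, adjusted p = 0.0354) ended without PBS OIL replicate 2, DOX OIL replicate 1 or 3, PBS E2 replicate 2 or 3, or DOX E2 replicate 1 or 2.

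**Figure D4:**
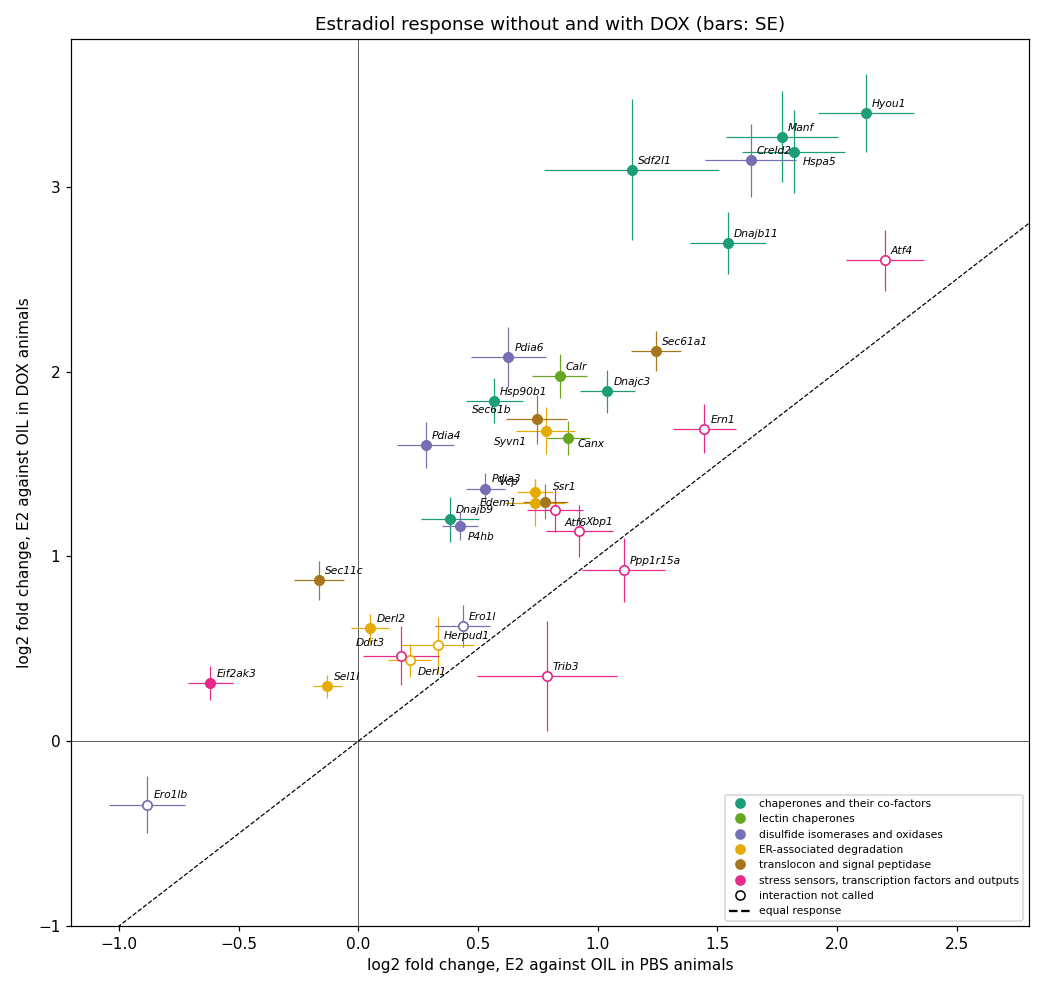
Log2 fold change of E2 against OIL in PBS animals (x axis) and in DOX animals (y axis) for each of the 36 genes, with bars for SE, colours for role, open points where the interaction was not called in edgeR and a dashed line for equal responses. All but Trib3 and Ppp1r15a lie above the line, and the farthest is Sdf2l1, at 1.14 and 3.09.

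P4 raised a smaller part of the set by smaller amounts. Against OIL, 10 members rose and 4 fell in the PBS arm, where 31.8% of all genes were called (16.2% higher and 15.6% lower). In the DOX arm 17 rose and 4 fell, where 29.8% were called (14.7% higher and 15.1% lower). Total-count scaling moved the share of calls that were higher in the DOX arm from 49.2% to 36.4%, with 13 members higher and 4 lower. The 10 genes that rose in PBS also rose in DOX: Hsp90b1, Hyou1, Dnajb11, Dnajc3, Manf, Calr, Pdia3, P4hb, Sec61a1 and Sec61b. Sec61b had the largest rise in PBS, 0.81 ± 0.13 (log2), from 21.2 ± 1.36 to 37.0 ± 6.02 CPM (SD, n = 3), and rose by 0.56 ± 0.13 in DOX. Manf had the largest rise in DOX, 0.89 ± 0.23, and rose by 0.65 ± 0.23 in PBS.

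The same 4 members fell with P4 in both arms. They were 11.1% of the set, below the share of all genes called lower, 15.6% in PBS and 15.1% in DOX. They were Trib3 (-1.32 ± 0.30 in PBS and -1.19 ± 0.31 in DOX), Ppp1r15a (-0.67 ± 0.18 and -0.76 ± 0.18), Ddit3 (-0.44 ± 0.16 and -0.72 ± 0.16) and Ero1lb (-0.47 ± 0.16 and -0.58 ± 0.16). The first 3 are outputs of the PERK branch. In PBS these falls depended on the setting: with the adipocyte covariate they were at -0.72, -0.34, -0.30 and -0.46, and 0 were called. Without PBS OIL replicate 1, Ppp1r15a was at -0.49 and Ddit3 at -0.25, neither called. The PBS call of Ddit3 also ended without any 1 of the 3 PBS P4 libraries (-0.38 to -0.49), and that of Ero1lb without PBS OIL replicate 2 or 3 or PBS P4 replicate 2 or 3 (-0.37 to -0.48). In DOX the call of Ero1lb ended without DOX OIL replicate 2 (-0.49). The Trib3 libraries were at 12.8, 10.7 and 10.1 CPM in PBS OIL and at 4.63, 4.44 and 4.40 CPM in PBS P4. In the DOX arm they were at 9.20, 8.76 and 8.06 CPM with OIL and at 4.48, 3.8 and 3.18 CPM with P4. The P4 libraries of Trib3 were the lowest of all 18 in both arms. Atf4 itself was at 0.14 ± 0.16 and 0.16 ± 0.16 and Xbp1 at 0.07 ± 0.14 and 0.05 ± 0.14, neither called (edgeR adjusted p from 0.471 to 0.817).

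The P4 calls rested on few libraries. PBS P4 replicate 3 and DOX P4 replicate 3 were the highest of their groups in summed members (5614 and 5718 CPM, against at most 4756 and 5203 CPM for the others). Without PBS P4 replicate 3, 4 members were called in PBS, 2 higher and 2 lower. The share of all genes called there went from 31.8% to 20.1%. Without PBS OIL replicate 1 there were 8 (26.6% of all genes) and without PBS OIL replicate 3 also 8 (28.5%). In DOX there were 13 without DOX P4 replicate 3, where the share of all genes went from 29.8% to 19.5%. Of the 14 calls in PBS only that of Sec61b held under every alternative, and of the 21 in DOX 10 did. Several marker sums moved with P4. The 8 adipocyte markers summed to 519 to 2205 CPM in PBS OIL and 18.3 to 220 CPM in PBS P4, while in the DOX arm the groups overlapped (122 to 530 and 14.0 to 277 CPM). With these markers as a covariate 3 members were called in PBS, all higher, and each of the 4 falls lost its call. The share of all genes called in PBS was 18.1% in that fit. The 6 smooth muscle markers rose without overlap in both arms, from 5633 to 6802 CPM in PBS OIL to between 11116 and 14606 CPM in PBS P4, and from 5306 to 10960 CPM in DOX OIL to between 11791 and 21136 CPM in DOX P4. The uterine markers also lay higher with P4 in both arms (1325 to 1504 CPM in PBS and 1333 to 1501 CPM in DOX), and in DOX the stromal markers lay higher (6643 to 8781 CPM, from 5408 to 6546 CPM) and the endothelial ones lower (396 to 457 CPM, from 506 to 602 CPM). Since the adipocyte sums of PBS OIL and PBS P4 did not overlap, the covariate fit cannot fully separate adipocytes from P4 there. The part of these cell types in the P4 result was not tested.

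Outside E2, DOX changed none of the members by the test. Under OIL 0 of 36 were called by edgeR, beside 0.0129% of all genes. At an unadjusted p under 0.05 there were also 0, beside 8.09% of all genes, and DESeq2 called 0 members and 0.136% of genes. The log2 fold changes ran from -0.37 ± 0.30 for Trib3 to 0.19 ± 0.12 for Dnajb9. Under P4 edgeR called 0 of 36, beside 0% of all genes. At an unadjusted p under 0.05 there was 1, Sel1l at 0.15 ± 0.06 (adjusted p = 0.892), beside 5.31% of all genes, and DESeq2 called 0 members and 0.0646% of genes. The interaction of P4 with DOX was called for 0 members by edgeR, by DESeq2 and at an unadjusted p under 0.05 (0.00645%, 0.0129% and 3.39% of all genes).

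**Figure D5:**
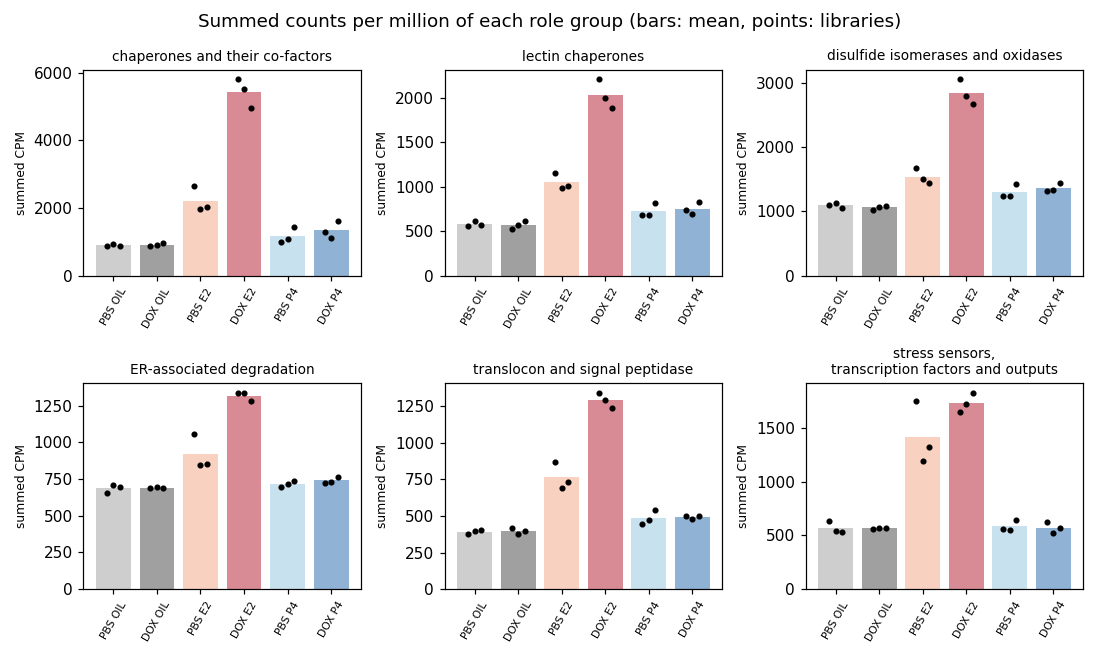
Summed CPM of each of the 6 role groups (y axis, from 0) by group (x axis), with bars for the mean of 3 libraries and points for the libraries. In 5 roles every DOX E2 library lies above every other library, while in the sensors and outputs PBS E2 replicate 1, at 1745 CPM, lies inside the DOX E2 range of 1642 to 1822 CPM.

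Other genes of the secretory pathway, in lists that do not hold the 36 members, were counted in the same fit, beside the 20.4% of all genes called higher and 20.6% lower. Of 28 genes of N-glycosylation, 24 rose with DOX under E2 and 0 fell (median log2 fold change 0.53). The leading ones were Alg2 (0.79 ± 0.09), which builds the sugar donor, and Rpn1, Rpn2 and Stt3a of the oligosaccharyltransferase (0.68, 0.61 and 0.68). Of 19 tested genes of translocation, signal peptidase and signal recognition particle, 17 rose and 0 fell (median 0.53), led by Spcs2 (0.72 ± 0.07), Srp72 (0.59), Ssr4 (0.74) and Ssr2 (0.91). Of 27 genes of traffic to the Golgi, 21 rose and 0 fell (median 0.45), among them the cargo receptor Lman1 (0.90 ± 0.08), Tmed9 (0.70), Bet1 (0.77) and Surf4 (0.68).

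Folding enzymes outside the set were more divided. Of 28, 17 rose and 2 fell (median log2 fold change 0.30), with the prolyl isomerase Fkbp11 at 1.54 ± 0.23, Txndc11 at 0.94 ± 0.12 and Erp44, which retrieves proteins from the Golgi, at 0.60 ± 0.09. The 2 that fell were Fkbp7, at -1.47 ± 0.16, and Sil1, an exchange factor of BiP, at -0.61 ± 0.11, the latter named after its value was seen. Of 21 tested further degradation factors 13 rose and 0 fell (median 0.30), led by H47, the gene of selenoprotein S (1.10 ± 0.17), Faf2 (0.38), Ube2j1 (0.43) and the signal peptide peptidase H13 (0.49). The count for the degradation factors was 8 without PBS E2 replicate 3 or without DOX E2 replicate 1 (31.2% and 29.9% of all genes called). It was 7 higher with 2 lower after total-count scaling (38.1% of all genes called). The adipocyte covariate left 14 genes of N-glycosylation higher, in a fit where 26.8% of all genes were called, against 41% in the main fit.

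Targets of ATF4 were near the background. Of 31 such genes, 5 rose and 5 fell with DOX under E2 (16.1% each way, beside 20.4% and 20.6% of all genes), with a median log2 fold change of 0.04. Those with the smallest p were the transaminase Gpt2 (-1.38 ± 0.24), the tRNA synthetase Eprs (0.77 ± 0.14), Stc2 (-0.91 ± 0.18) and the lipoprotein receptor Vldlr (-0.87 ± 0.19). Without PBS E2 replicate 1, 14 rose and 5 fell (43.6% of all genes called), so the balance of this list rests on that library. Without PBS E2 replicate 3, 2 rose and 5 fell (31.2% of all genes called). Without any 1 of the other 4 libraries 3 rose and 5 fell (29.9% to 37.4%). With E2 against OIL 23 of the 31 rose and 1 fell in PBS (median 1.35), beside 29.6% and 31.9% of all genes. In DOX 22 rose and 3 fell (median 1.42), beside 35.1% and 37.5% of all genes. The interaction was higher for 2 and lower for 4 of the 31, beside 10.1% and 12.8% of all genes. Of 21 other stress regulators tested, 5 rose (23.8%, near the 20.4% of all genes) and 1 fell with DOX under E2 (median 0.17). Those with the smallest p were Wfs1 at 0.85 ± 0.20, Atf6b at 0.42 ± 0.10, the eIF2α gene Eif2s1 at 0.47 and Eif2ak2 at 0.33. The 1 that fell was Mbtps1, the protease that cuts ATF6, at -0.25 ± 0.09, named after its value was seen.

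Markers of several cell types moved beside these results. All 8 adipocyte markers fell with DOX under E2, with sums of 183 to 3958 CPM in PBS E2 and 0.774 to 134 CPM in DOX E2. With them as a covariate, 28 members were called higher with DOX under E2 and 0 lower, beside 26.8% of all genes called. The calls of Ero1l, Ero1lb and Edem1 ended (0.40, 0.55 and 0.49), those of Derl1 (0.38) and Atf4 (0.62) were gained, and Trib3 was at 0.031. The adipocyte sums of the 2 groups did not overlap, so this fit cannot fully separate adipocytes from DOX. The 6 stromal markers summed to 3862 to 5337 CPM in PBS E2 and 1952 to 3050 CPM in DOX E2, with Dcn (-1.2) and Lum (-1.23) lower and Pdgfra (0.45) higher. The 8 epithelial markers summed to 554 to 769 CPM in PBS E2 and 770 to 1099.7 CPM in DOX E2, with Krt8 (0.84) and Cdh1 (0.67) higher. The 6 smooth muscle markers summed to 7740 to 8363 CPM in PBS E2 and 6128 to 7735 CPM in DOX E2. The part of stroma, epithelium and smooth muscle in the members' rise was not tested.

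Plasma cells, which secrete antibody and are rich in this machinery, showed no common rise of their markers. The 8 markers summed to 259 to 377 CPM in PBS E2 and 359 to 550 CPM in DOX E2, groups that overlapped. Sdc1 (0.55) and Prdm1 (0.81) rose and the other 6 were not called, among them the joining chain gene (Igj, 0.15) and Mzb1 (listed as 2010001M09Rik, -0.28). The part of plasma cells in the members' rise was not tested. None of the 8 was at 0 in all libraries of either group.

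On build GRCm38, per GENCODE M21, Hspa5 lies at chr2:34771970-34777547 on the plus strand, Hsp90b1 at chr10:86690209-86705509 on the minus strand, Calr at chr8:84841850-84846934 on the minus strand and Pdia4 at chr6:47796141-47813430 on the minus strand. Atf4 lies at chr15:80255184-80257541, Xbp1 at chr11:5520659-5525893 and Eif2ak3 at chr6:70844515-70905245, all on the plus strand, and Trib3 at chr2:152337422-152344032 on the minus strand. All 36 are protein-coding genes. Of these, 13 share exon bases with another gene, and 3 of the 13 do so on the same strand: Hsp90b1, Manf and Pdia4. The strand setting of the counting is not given in the sources used here, so for these 13, Ddit3 with Mars among them, reads from shared bases cannot be told apart.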

How the data were processed

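RNA of the whole uterus was purified by Trizol, and a TruSeq kit for total RNA served for the libraries, per the labels' protocols. The authors deposited a table of gene counts. The tools named are HISAT2 2.1.0 and StringTie 1.3.4d with the build GRCm38, Trimmomatic 0.36 and FastQC 0.11.5, SAMtools 1.6, and DESeq2 1.18.1 in R 3.4.4, per the submitters' processing notes. For the counting step, its annotation and its strand setting, the sources used here give nothing.

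The deposited counts were analysed in R 4.3.3 with edgeR 4.0.16 (filterByExpr, TMM scaling, robust quasi-likelihood F test) in 1 model of 6 groups with 3 libraries each and 9 contrasts. P-values were adjusted by Benjamini-Hochberg over all tested genes, with a threshold of 0.05. The SE was the log2 fold change divided by the root of F, and CPM used the TMM-scaled library sizes. Tests were checked on simulated data. Alternatives were DESeq2 1.42.0 (size factors, Wald test), total-count scaling, no filter, a filter of 1 CPM in 3 libraries, a replicate block, an adipocyte covariate, a fit of only the groups compared, and leaving out each library. The alternatives for the other gene lists were added after seeing the data.

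Values by library are printed for the 2 members of each role with the smallest p for DOX under E2, for members called lower there, and for Xbp1, Atf4, Ddit3 and Trib3. Of each other list 4 genes with the smallest p are named. The members and lists were chosen with earlier results of these data known.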

Additional observations from a re-analysis of the deposited data

Results flagged for a closer look

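The response to E2 differed between PBS and DOX animals for 25 of the 36 genes, by the test of the difference itself (edgeR interaction of E2 with DOX, 22.9% of all genes called). Values are differences of log2 fold changes, DOX arm minus PBS arm, and all 25 were larger in the DOX arm. Among chaperones and co-factors the difference was 1.95 for Sdf2l1, 1.5 for Manf, 1.37 for Hspa5, 1.28 for both Hsp90b1 and Hyou1, 1.15 for Dnajb11, 0.85 for Dnajc3 and 0.82 for Dnajb9. For the lectin chaperones it was 1.14 (Calr) and 0.76 (Canx). Among isomerases it was 1.5 for Creld2, 1.45 for Pdia6, 1.32 for Pdia4, 0.84 for Pdia3 and 0.74 for P4hb. Degradation factors differed by 0.90 (Syvn1), 0.61 (Vcp), 0.56 (Derl2), 0.55 (Edem1) and 0.43 (Sel1l). The translocon and signal peptidase differed by 1.03 (Sec11c), 1.0 (Sec61b), 0.87 (Sec61a1) and 0.51 (Ssr1). The sensor Eif2ak3 differed by 0.93.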

How the results depend on the processing

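For DOX against PBS under E2, leaving out 1 library gave 26 to 32 members called, beside 29.9% to 43.6% of all genes. DESeq2's test gave 30 (42.7% of all genes), the adipocyte covariate 28 (26.8%) and a fit to the E2 groups alone 26 (29.9%). The replicate block, a fit in which equal replicate numbers share a term, gave 30 members called under E2 (41.2% of all genes). It gave 29 for E2 against OIL in PBS (61.5%), 34 in DOX (72.6%) and 25 for the interaction (23.3%). For P4 it gave 12 in PBS (31.8%) and 20 in DOX (29.6%). Same-numbered libraries did not deviate together in general: over 45 pairs r ran from -0.28 to 0.36 with a median of -0.03. Of the 18 libraries 5 correlated best with their own number. Some pairs did deviate together: 12 of the 45 had r over 0.1. Between PBS OIL and DOX OIL, r was 0.28, 0.36 and 0.09 for replicates 1 to 3. The numbers are not known to pair the samples. Leaving out 1 library gave 26 to 32 calls for E2 in PBS (54.6% to 60.3% of all genes). For E2 in DOX it gave 33 to 35 (68.4% to 69.7%), and for the interaction 24 to 29 (15.5% to 31.3%). For P4 it gave 4 to 14 in PBS (20.1% to 28.5%) and 13 to 21 in DOX (19.5% to 24.9%). There were 0 for DOX without E2 (OIL or P4) and for the P4 interaction, beside at most 0.0128% of all genes. For P4 in PBS the adipocyte covariate gave 3 calls (18.1% of all genes) and the fit of only the groups compared 9 (24.6%). Among values called in the main fit or in the alternative, the sign of 2 turned. Trib3 with DOX under E2 was at 0.031 with the adipocyte covariate, and Sel1l with E2 in DOX at -0.016 with total counts. The cause was not tested. Over members, comparisons and alternatives together, 4756 values kept their call or lack of one, 157 lost the call, 53 gained it and 2 reversed. For values called in neither fit the sign was not compared. For the other lists, further counts were 11 higher and 2 lower (folding enzymes, total counts) and 7 and 0 (degradation factors, only the groups compared). For ATF4 targets they were 8 and 2 (adipocyte covariate) and 1 and 6 (only the groups compared). Of all genes 38.1% were called with total counts, 26.8% with the adipocyte covariate and 29.9% with only the groups compared. With 3 libraries a group, the SE of a log2 fold change of DOX under E2 ran from 0.06 (Sel1l) to 0.36 (Sdf2l1), which bounds the differences that could be seen.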
